A study of Drosophila melanogaster with 6 samples.

Results

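Heat shock proteins and their constitutive relatives are molecular chaperones, proteins that keep other proteins folded. Their transcripts were compared here between 2 genotypes of Drosophila melanogaster eye-antennal imaginal discs, epithelial sacs of the larva from which the adult eye and antenna arise. The genes considered were 10: the small heat shock protein genes Hsp22, Hsp23, Hsp26, Hsp27, Hsp67Ba and Hsp67Bc, the Hsp70 genes Hsp68, Hsc70-3 and Hsc70-4, and the Hsp90 gene Hsp83. They were followed through every probe set whose platform annotation names 1 gene, that gene being 1 of the 10. This gave 6 probe sets for 5 of the 10 genes, among 13966 probe sets in all, whose single-gene part stood for 10844 genes, namely 1 each for Hsp26, Hsp27, Hsp68 and Hsc70-4 and 2 for Hsc70-3. The other 5 genes are not analysed here: 3 probe sets name Hsp22 together with its overlapping neighbour CG4456, and Hsp23, Hsp67Ba, Hsp67Bc and Hsp83 are unnamed in the annotation used. A further 2 probe sets name Hsc70-4 together with Acbp3 and were not used either.

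The discs came from wandering 3rd instar larvae kept at 25 degrees C, 100 discs per sample, with 3 single-colour Affymetrix arrays per genotype. The RasV12 genotype, GMR Gal4/UAS RasV12, expressed activated Ras, and the sSpi genotype, GMR Gal4/+; UAS sSpi/+, expressed the secreted form of the EGF receptor ligand Spitz. All 6 samples carry GMR Gal4, which drives its transgene in eye cells behind the morphogenetic furrow, so the antennal part and the cells ahead of the furrow were measured along with the cells that express it. Discs without a transgene are not analysed here. The titles call the samples of a genotype biological replicates. For the sSpi samples the description field speaks of RasV12, against their titles and genotypes, and the titles were followed.

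As background, small heat shock proteins bind unfolding proteins without using ATP and hold them in a state from which they can be refolded. Hsp70 proteins bind and release their clients in an ATP cycle, started by J-domain co-chaperones and reset by nucleotide exchange factors. Heat shock factor, Hsf, activates the inducible genes when unfolded protein accumulates, while the cognate genes, whose names begin with Hsc, are active without stress. In Drosophila larvae several small heat shock protein genes are also activated by the steroid ecdysone at the onset of metamorphosis.

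Transcript levels are given as MAS5 signal on a linear scale. Differences are RasV12 minus sSpi on the scale of log2(signal + 16), fitted with limma over 8380 probe sets and adjusted by the Benjamini-Hochberg method, and a call is an adjusted p under 0.05. A fold on this scale understates the change of dim genes. In a bulk sample, fewer cells of a type and less RNA per cell cannot be told apart.

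The arrays were alike in overall level, with median signals of 39.5 to 41.4. RasV12 replicate 1 stood apart: it read 157 for 18S ribosomal RNA at the middle control probe set, against 24.7 to 30.4 on the others, and the second principal component placed it at 20.3 with the others between -13.4 and 3.93. Values without it are given beside a result where they change the call or move the value by over 1.5 times. Of 13 eye disc markers with a probe set 12 lay above the signal filter, and so did 8 of 8 antennal disc markers.

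Hsp27 was the 1 gene of the 5 that passed: its transcript was 1.43-fold higher in RasV12 than in sSpi discs. Hsc70-4, the main cytosolic cognate Hsp70, was higher on every RasV12 array than on every sSpi array, by 1.28-fold, and did not pass. Hsp26 and Hsp68 varied too much between arrays of a genotype for their higher RasV12 means to pass, and the difference of Hsc70-3, the Hsp70 of the endoplasmic reticulum, was close to 0. Thus 1 of 5 tested probe sets was called, higher in RasV12; of all 8380 probe sets tested, 2.61% were called and 1.30% were called higher in RasV12. The groups did not overlap for 2 of the 5, Hsp27 and Hsc70-4, against 21.3% of all probe sets, 10.2% with RasV12 above.

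**Figure D1:**
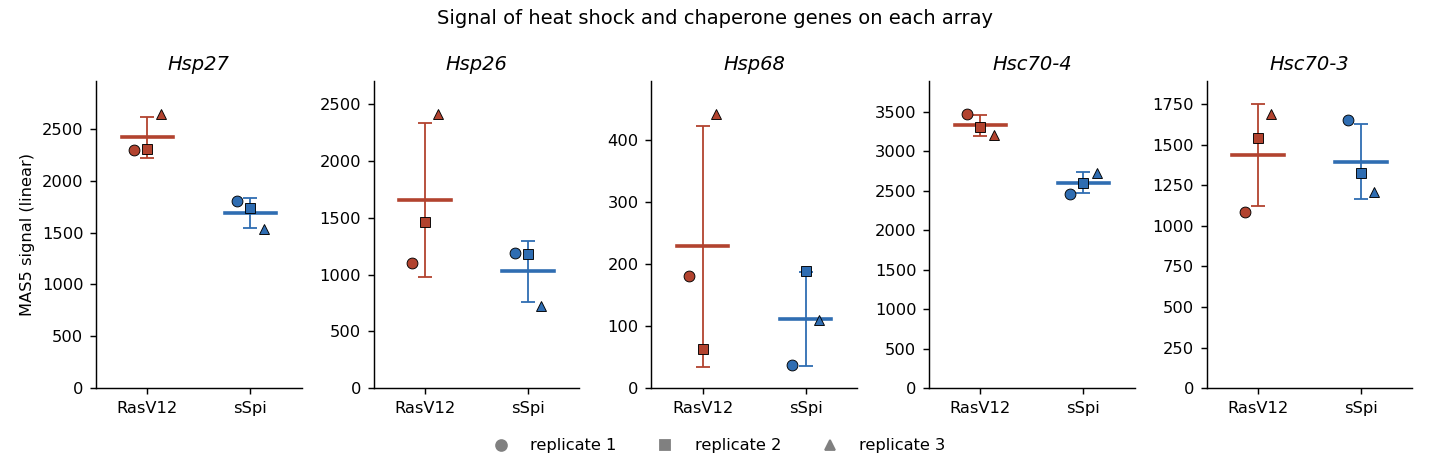
MAS5 signal (linear axis from 0) of Hsp27, Hsp26, Hsp68, Hsc70-4 and Hsc70-3 on each of 6 arrays, with horizontal lines for the genotype means and bars for the SD of 3 arrays. The 3 RasV12 values lie above the 3 sSpi values for Hsp27 and Hsc70-4, while the groups overlap for Hsp26, Hsp68 and Hsc70-3.

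Hsp27 encodes a small heat shock protein that Drosophila makes in development as well as after heat. Its signals on RasV12 replicates 1 to 3 were 2300, 2310 and 2645, and on sSpi replicates 1 to 3 they were 1808, 1737 and 1532. The lowest RasV12 array thus lay well above the highest sSpi array, and the arrays of each genotype lay close together. The means were 2418 ± 196 in RasV12 and 1692 ± 144 in sSpi (SD, n = 3). Fitted in limma, they differed by 0.51 ± 0.10 log2 units (SE, adjusted p = 0.034). The 95% interval of the fold was 1.21 to 1.68.

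The call of Hsp27 was lost in 11 of 16 other settings, while its direction held in all 16. That direction carries little weight, because a filter, the trend or the replicate block cannot change the fitted difference. Nor can leaving out arrays reverse it, as the groups do not overlap. Leaving out RasV12 replicate 1 kept the call, with a limma adjusted p of 0.031, whereas without RasV12 replicate 2 or 3, or sSpi replicate 1, 2 or 3, the adjusted p was 0.10, 0.13, 0.074, 0.098 and 0.13. The log2 difference stayed between 0.42 and 0.57 in every setting tried.

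Hsp26 encodes another small heat shock protein and lies in the same cluster on chromosome arm 3L. In the gene table of Release 6 the order there is Hsp67Bc, CG4456, Hsp22, CG4461, Hsp26, Hsp67Ba, an antisense RNA, Hsp23 and Hsp27. The Hsp26 signals were 1101, 1467 and 2414 on RasV12 replicates 1 to 3, and 1187, 1184 and 720 on sSpi replicates 1 to 3. RasV12 replicate 3 was far above all other arrays and sSpi replicate 3 far below them, while RasV12 replicate 1 lay under 2 of the 3 sSpi arrays. The means were 1661 ± 678 and 1030 ± 269 (SD, n = 3), and the fitted difference of 0.64 ± 0.27 log2 units (SE) did not pass (limma adjusted p = 0.31), with a 95% interval of 0.02 to 1.26.

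The size of the Hsp26 difference rested on single arrays. It was 0.33 without RasV12 replicate 3 and 0.40 without sSpi replicate 3, whereas without RasV12 replicate 1, the array that stood apart, it was 0.90 (limma adjusted p = 0.092). None of the 16 other settings gave a call. The direction was the same in all 16, though a filter, the trend or the replicate block cannot change it.

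Other genes of the small heat shock protein family could be read at only 4 probe sets, 2 of them below the signal filter. CG4461, which sits between Hsp22 and Hsp26 in the cluster, had signals of 76.0, 75.5 and 59.9 in RasV12 and 62.5, 79.1 and 75.8 in sSpi, so its groups overlapped. l(2)efl, a crystallin-like small heat shock protein gene outside that cluster, had signals of 213, 86.9 and 109 in RasV12 and 104, 161 and 169 in sSpi. Its groups overlapped too, with RasV12 replicate 1 the highest array. The summed signal of 10 muscle markers was 902 on that array and 1142 on sSpi replicate 3, against 349 to 608 on the other 4, with Act88F, Prm, bt and twi below the signal filter, and its part in the l(2)efl values was not tested.

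Hsp68 encodes a stress-inducible Hsp70. Its signals were 181, 62.5 and 442 on RasV12 replicates 1 to 3 and 37.4, 189 and 110 on sSpi replicates 1 to 3. The spread ran across the genotypes: RasV12 replicate 2 lay below 2 of the 3 sSpi arrays, and the highest signal, on RasV12 replicate 3, was 11.8 times the lowest, on sSpi replicate 1. Within RasV12 the highest array was 7.08 times the lowest and within sSpi 5.04 times.

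The Hsp68 means were 229 ± 194 and 112 ± 75.6 (SD, n = 3), and the fitted difference of 0.79 ± 0.61 log2 units (SE) did not pass (limma adjusted p = 0.60). Its 95% interval ran from -0.58 to 2.16. Without RasV12 replicate 3 the difference was 0.16, without sSpi replicate 1 it was 0.26, and without RasV12 replicate 2 or sSpi replicate 2 it was 1.43 and 1.23. On sSpi replicate 2, the array with the highest sSpi signal of Hsp68, the summed signal of 7 salivary gland markers was 880, against 122 to 238 on the other 5 arrays, with Sgs1, Sgs4 and Sgs5 below the filter; its part in the Hsp68 value was not tested.

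Hsc70-4 encodes the cognate Hsp70 of the cytosol, which folds new proteins and strips clathrin from endocytic vesicles. Its signals were 3476, 3315 and 3203 on RasV12 replicates 1 to 3 and 2467, 2603 and 2733 on sSpi replicates 1 to 3. All RasV12 arrays lay above all sSpi arrays, and within a genotype the highest array was at most 1.11 times the lowest. The means were 3331 ± 137 and 2601 ± 133 (SD, n = 3), or 0.36 ± 0.09 log2 units apart (SE), and limma gave an adjusted p of 0.082. The 95% interval of the fold was 1.11 to 1.47.

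After quantile normalization between arrays the Hsc70-4 difference was 0.37 and passed (limma adjusted p = 0.020), where 1.31% of all probe sets were called higher in RasV12. It passed in none of the other 15 settings tried. The direction was the same in all 16, but as for Hsp27, leaving out arrays or changing the filter, trend or block could not reverse it.

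Hsc70-3 encodes BiP, the Hsp70 of the endoplasmic reticulum, which folds secreted proteins and rises when unfolded protein gathers there. Its probe set with signal read 1086, 1540 and 1688 on RasV12 replicates 1 to 3 and 1652, 1324 and 1206 on sSpi replicates 1 to 3. The groups covered nearly the same range. The means were 1438 ± 314 and 1394 ± 231 (SD, n = 3), or 0.03 ± 0.17 log2 units apart (SE, adjusted p = 0.95 in limma). The 95% interval ran from -0.36 to 0.42, or from 0.782-fold to 1.34-fold. Without RasV12 replicate 1, the lowest array, the difference was 0.22 (limma adjusted p = 0.43), and with another array left out it lay between -0.094 and 0.16. The name of this probe set carries the suffix for probes that can match related sequences, so part of its signal may come from other transcripts, which was not tested.

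The second Hsc70-3 probe set read 2.25, 3.96 and 10.1 in RasV12 and 9.28, 3.35 and 8.17 in sSpi. All 6 values were below 23.4, the lowest mean signal tested, and the groups overlapped. Without the signal filter its log2 difference was -0.10 (limma adjusted p = 0.86).

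The 5 genes differed in how much they varied between arrays of the same genotype. The within-genotype SD of the log2 signal was 1.14 for Hsp68, at the 99.8th percentile of all probe sets tested, and 0.49 for Hsp26, at the 97.8th percentile. It was 0.29 for Hsc70-3, at the 87.4th percentile, 0.12 for Hsp27, at the 27.4th, and 0.07 for Hsc70-4, at the 5.00th. The genes that varied least within a genotype were the ones whose groups did not overlap, but a small spread by itself makes overlap less likely. Hsp26 and Hsp68 had larger fitted differences, 0.64 and 0.79, and overlapped.

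RasV12 replicate 3 had the highest signal of the 6 arrays for Hsp26, Hsp27, Hsp68 and Hsc70-3, 4 of the 5, whereas it was the highest array for 15.4% of all probe sets tested. For Hsc70-4 it was the lowest of the RasV12 arrays. This array was picked with these values in view, so the share of 15.4% is no test of the 4 of 5. DnaJ-1, the inducible J-domain partner of Hsp70, also had its highest signal there, 688, against 584 and 609 on RasV12 replicates 1 and 2 and 538 to 549 on the sSpi arrays; this gene was picked with its values in view. Its log2 difference was 0.19 ± 0.10 and did not pass (limma adjusted p = 0.40, n = 3), and it was 0.13 without RasV12 replicate 3. Of the 17 J-domain genes tested, DnaJ-1 included, 6 were highest on that array. Among all 74 chaperone genes tested outside the 10, 17 were highest there and the rest on another array.

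The array-to-array order of Hsp26 was that of the mean of the ecdysone response genes, though not of each of them. Averaged over 16 such genes as a list score, the log2 deviation of an array from the 6-array mean was used. On this score RasV12 replicates 1 to 3 stood at -0.29, 0.43 and 0.47 and sSpi replicates 1 to 3 at 0.05, -0.15 and -0.51. The Hsp26 deviations were -0.19, 0.22 and 0.93 in RasV12 and -0.08, -0.09 and -0.79 in sSpi. In both series RasV12 replicate 3 was highest, followed by RasV12 replicate 2, sSpi replicates 1 and 2, RasV12 replicate 1 and sSpi replicate 3. For Hsp26 the sSpi replicates 1 and 2 were nearly equal. Of the 16 ecdysone genes, 9 had their highest signal on RasV12 replicate 3 and the others on another array, against 1032 of all 6768 genes tested. The score is a mean, so the most variable genes, such as ImpE1 with a within-genotype SD of 1.57, weigh most in it. Hsp27 followed the same order except for RasV12 replicate 1, which at 0.19 stayed with the other RasV12 arrays.

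In a fit with this score as a covariate, added after the values were seen, the difference of Hsp26 was 0.18 (limma adjusted p = 0.69) and that of Hsp27 was 0.42 (adjusted p = 0.084). That of Hsc70-4 was 0.42 (adjusted p = 0.059). Over all probe sets this fit called 309, against 219 as reported. The score was partly tied to genotype, and the part of ecdysone in the Hsp26 and Hsp27 differences was not tested. On the score itself RasV12 replicates 2 and 3 lay above all sSpi arrays and RasV12 replicate 1 below sSpi replicates 1 and 2. None of the 16 ecdysone genes tested passed in limma; 5 had an unadjusted p under 0.05, all higher in RasV12, where 7.48% of all genes tested had such a p and were higher and 7.18% were lower. Among the 5 were ImpE3 and Cth with log2 differences of 1.61 and 0.45.

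**Figure D2:**
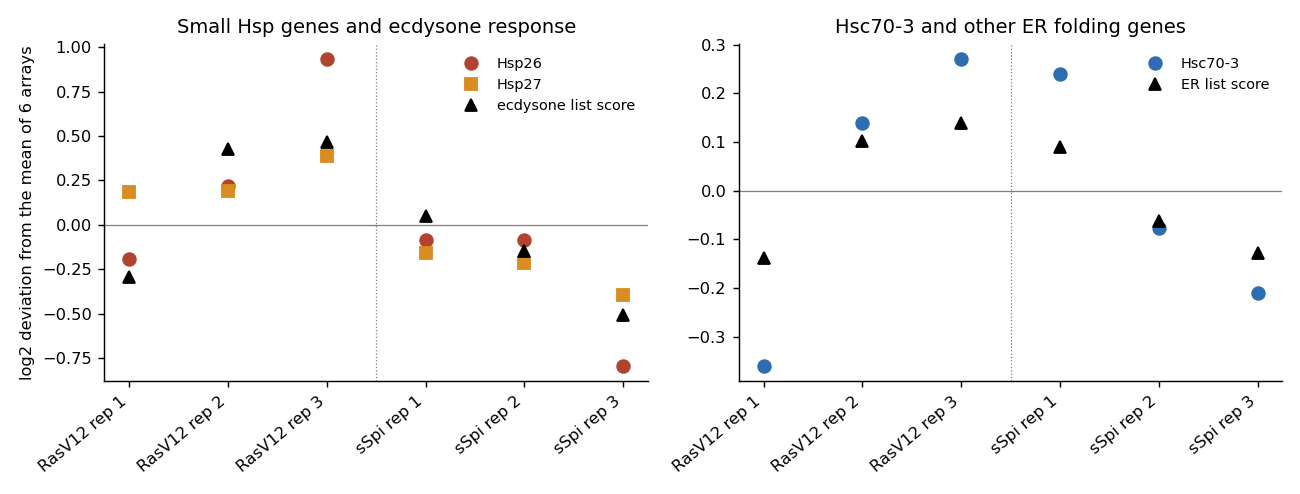
Log2 deviation of each array from the mean of 6 arrays for Hsp26, Hsp27 and the ecdysone list score (left), and for Hsc70-3 and the list score of 20 other genes of endoplasmic reticulum folding (right). The Hsp26 points fall from 0.93 on RasV12 replicate 3 to -0.79 on sSpi replicate 3, in the same array order as the ecdysone list score.

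The deviations of Hsc70-3 had the same sign on each array as the mean of the other folding genes of the endoplasmic reticulum, though not as each of them. Their list score, over 20 genes without Hsc70-3, was -0.14, 0.10 and 0.14 on RasV12 replicates 1 to 3 and 0.09, -0.06 and -0.13 on sSpi replicates 1 to 3. The Hsc70-3 deviations were -0.36, 0.14 and 0.27 and then 0.24, -0.08 and -0.21, so that RasV12 replicates 2 and 3 and sSpi replicate 1 were above 0 in both. Gp93, the Hsp90 of the endoplasmic reticulum, had signals of 894, 1418 and 1315 in RasV12 and 1489, 1093 and 929 in sSpi, with the same 3 arrays high. Grp170, a large Hsp70 relative there, had signals of 168, 228 and 222 in RasV12 and 234, 190 and 136 in sSpi. Other genes of the list went otherwise: Cnx99A had its lowest signal, 830, on sSpi replicate 1, and crc its highest, 3057, on sSpi replicate 3.

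None of the 21 genes tested for endoplasmic reticulum folding and the unfolded protein response passed in limma, none had an unadjusted p under 0.05 and in none did the groups separate. Among all genes tested 2.62% passed, 14.7% had such a p and 20.9% had groups that did not overlap. The median log2 difference of the 21 was 0.06, with 14 above 0 and 7 below, against a median of -0.0022 and 49.6% above 0 over all 6768 genes tested. The smallest p belonged to Cnx99A, a calnexin that retains unfolded glycoproteins, and Herp, a factor of protein degradation at that membrane. In limma they differed by 0.23 ± 0.12 and 0.27 ± 0.17 log2 units (SE, adjusted p = 0.40 and 0.51). Without RasV12 replicate 1 the difference of Herp was 0.42 (adjusted p = 0.17) and without sSpi replicate 2 it was 0.11, while that of Cnx99A was 0.15 without RasV12 replicate 3.

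Across the 8 chaperone lists, without the 10 genes above, 74 genes were tested and 1 was called, Csp, which was higher in RasV12. Over all genes tested 2.62% were called. Of the 74 differences 43 were above 0 and 31 below, with a median of 0.05 and a range from -0.31 to 0.48. The groups did not overlap for 10 of the 74, or 13.5%, with 5 in each direction, against 20.9% of all genes.

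**Figure D3:**
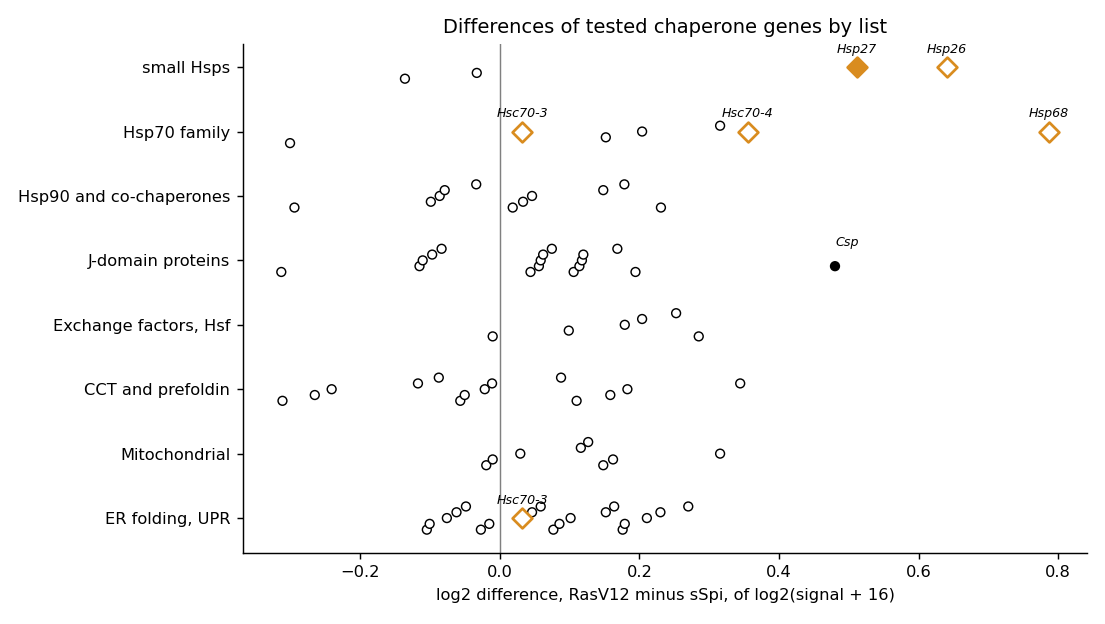
Log2 difference, RasV12 minus sSpi, of each tested chaperone gene by list, with 1 probe set per gene; filled symbols have an adjusted p under 0.05, diamonds are genes of the heat shock set and circles are other genes, and a gene in several lists appears in each. Hsp27 and Csp are the filled symbols, at 0.51 and 0.48, and most other chaperone genes lie near 0.

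Csp encodes the cysteine string protein, a J-domain partner of Hsc70-4 on synaptic vesicles. Its signals were 392, 402 and 368 on RasV12 replicates 1 to 3 and 265, 267 and 287 on sSpi replicates 1 to 3. The groups were clear of each other. The means were 387 ± 17.5 and 273 ± 12.4 (SD, n = 3), and limma put the difference at 0.48 ± 0.10 log2 units (SE, adjusted p = 0.031). Its call was kept in 8 of 16 other settings and lost in 8, at adjusted p up to 0.14, among them the fits without RasV12 replicate 2 (0.14), RasV12 replicate 3 (0.059) or sSpi replicate 1 (0.13), 2 (0.13) or 3 (0.066). Of the 17 J-domain genes tested, 1 was called, against 2.62% of all genes, 12 differences were above 0 and the median was 0.06.

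No gene of the Hsp70 family passed in limma. Of 7 tested, Hsp68, Hsc70-3 and Hsc70-4 included, 2 had an unadjusted p under 0.05, Hsc70-4 and CG7182, against 14.7% of all genes. In this family 6 differences were above 0 and 1 below, and the median was 0.20. CG7182, an Hsp70-like gene, was the 1 below 0, at 168 ± 13.6 in RasV12 and 211 ± 15.3 in sSpi, which is -0.30 ± 0.11 log2 units (limma adjusted p = 0.22, n = 3). Its RasV12 arrays lay below all sSpi arrays, opposite to Hsc70-4. Hsc70-5, the mitochondrial Hsp70, had a difference of 0.32 ± 0.15 (limma adjusted p = 0.35, n = 3), which was 0.17 without sSpi replicate 2.

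Of 6 exchange factor and regulatory genes, none passed in limma and none had an unadjusted p under 0.05, while 5 differences were above 0, with a median of 0.19. Such a p was found for 14.7% of all genes tested. Hsf, the transcription factor of the heat shock response, measured 165 ± 24.9 in RasV12 and 135 ± 17.3 in sSpi, and Hsp110, an exchange factor of Hsp70, 257 ± 11.7 and 221 ± 24.5 (SD, n = 3). These correspond to 0.25 ± 0.14 and 0.20 ± 0.11 log2 units (SE, adjusted p = 0.44 and 0.43 in limma), and the groups of each overlapped.

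Hsp83 itself was not analysed here, and 11 other genes of the Hsp90 system were tested. None passed in limma and 1 had an unadjusted p under 0.05, Cdc37, against 14.7% of all genes. The median was 0.02 with 6 differences above 0. The kinase co-chaperone Cdc37 was at 372 ± 21.5 in RasV12 and 460 ± 28.6 in sSpi, which limma fitted as -0.29 ± 0.10 log2 units, and the immunophilin Fkbp59 was at 239 ± 12.4 and 202 ± 17.0, a difference of 0.23 ± 0.10 (SE, limma adjusted p = 0.18 and 0.34, n = 3).

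For the cytosolic chaperonin CCT and prefoldin, which fold actin and tubulin, 9 of 14 differences were below 0, with a median of -0.04. None passed in limma, and 3 had an unadjusted p under 0.05, all lower in RasV12, against 7.18% of all genes. The subunit genes CCT1 and CCT4 differed by -0.31 ± 0.12 and -0.27 ± 0.10 log2 units (SE, limma adjusted p of 0.24 for each). Of 8 mitochondrial chaperone and protease genes none passed in limma and none had an unadjusted p under 0.05, against 14.7% of all genes. In this list 6 differences were above 0 with a median of 0.12. CG11267, a gene of that list, had a difference of 0.16 ± 0.11 (limma adjusted p = 0.54, n = 3), which was 0.067 without RasV12 replicate 1.

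**Figure D4:**
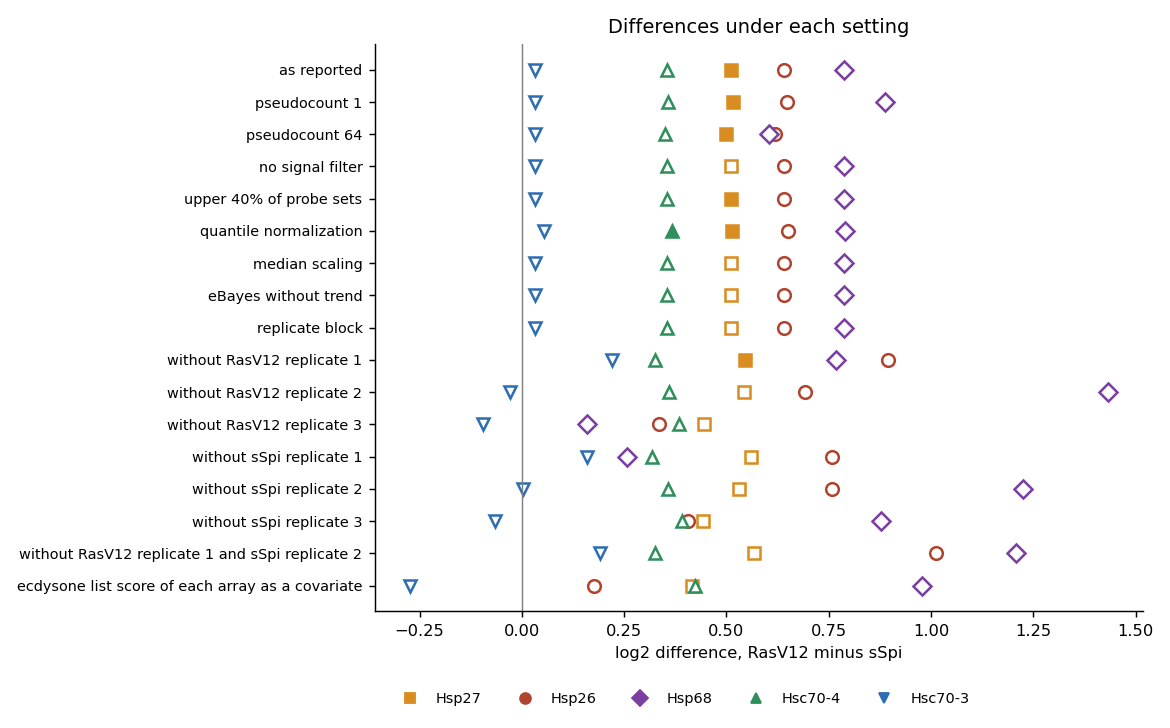
Log2 difference, RasV12 minus sSpi, of Hsp27, Hsp26, Hsp68, Hsc70-4 and Hsc70-3 as reported and under 16 other settings, with filled symbols where the adjusted p was under 0.05. Hsp27 stays between 0.42 and 0.57 throughout, while Hsp68 runs from 0.16 to 1.43 with the array left out and Hsc70-3 lies on either side of 0.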

How the data were processed

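Transcripts were measured on 6 single-colour Affymetrix arrays. The authors' deposited values are intensities, 1 linear signal per probe set made with MAS5, per the submitters' processing notes; its version and a genome build are not given in the sources used here. With 2% trimmed at each end, all 6 arrays averaged 100. Of 13966 probe sets without controls, 12443 name 1 gene, 327 several and 1196 none, and 12394 symbols were updated through gene identifiers to the Release 6 gene table.

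Signals were taken as log2(signal + 16). The brightest 60% by mean signal, 8380 probe sets, were fitted by lmFit and trended eBayes (limma 3.58.1, R 4.3.3; two-sided, threshold 0.05). Lists used the brightest probe set per gene. The genes of interest and the lists were chosen with earlier results of these data known. Text names every single-gene probe set of the 10 genes and, per list, up to 4 called genes or the 2 with the smallest p; family relatives are given by level. The other settings were a pseudocount of 1 or of 64, no filter, only the brightest 40%, quantile or median scaling between arrays, no trend, a replicate block and leaving out each array. Added after seeing the data were the removal of RasV12 replicate 1 with sSpi replicate 2, and the ecdysone covariate.

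Titles give both genotypes replicate numbers 1 to 3. Same-numbered arrays had correlations of deviations of -0.11, -0.04 and -0.14, so they were not treated as pairs. Tested on simulated data with the means and spread of these 8380 probe sets, for RasV12 minus sSpi, the fit recovered 23.3% of changes of a log2 value of 0.5, 78.5% at 1 and 97.3% at 2, with 4.61% of calls false. The number of arrays limits the precision. Figures used matplotlib 3.10.9 and Python 3.11.15.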

Additional observations from a re-analysis of the deposited data

How the results depend on the processing

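Over all probe sets, 219 were called as reported, 138 with no signal filter and 86 to 369 with 1 array left out, the most without RasV12 replicate 1. Of the 5 tested heat shock and chaperone probe sets, 1 was called as reported and 0 to 1 with an array left out. None of the 5 was called with no signal filter, median scaling, no trend, the replicate block, the 2 arrays removed together or the ecdysone covariate. Over all probe sets these settings called 138, 205, 188, 159, 162 and 309, in that order. After quantile normalization 2 of the 5 were called, Hsp27 and Hsc70-4, and 220 of all probe sets. The log2 difference of Hsc70-3 changed sign with arrays left out, from -0.094 to 0.22, and was -0.27 with the ecdysone covariate; the cause was not tested. Hsp26, Hsp27, Hsp68 and Hsc70-4 kept their direction in all 16 settings. The filters, the trend and the replicate block cannot change a fitted difference, and leaving out arrays cannot reverse that of Hsp27 or Hsc70-4. With the replicate block, which called 159 probe sets in all, the limma adjusted p was 0.14 for Hsp27, 0.30 for Hsc70-4 and 0.11 for Csp. MtnA passed with the ecdysone covariate (1.10, adjusted p = 0.010), and ImpE3 without RasV12 replicate 1 (2.16, 0.0071) and without that array and sSpi replicate 2 (2.36, 0.015). With 3 arrays per genotype, differences of a log2 value of 0.5 were mostly missed in the simulated data.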

Other observations

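Of 12 genes of the oxidative and metal stress response tested, none passed in limma, 3 had an unadjusted p under 0.05, all higher in RasV12, against 7.48% of all genes, and 10 differences were above 0 with a median of 0.17. Keap1, which encodes a sensor of oxidative stress, was at 74.1 ± 4.36 in RasV12 and 48.0 ± 6.73 in sSpi (SD, n = 3), or 0.50 ± 0.13 log2 units apart (SE, adjusted p = 0.091 in limma). The metallothionein gene MtnA was at 212, 96.9 and 109 on RasV12 replicates 1 to 3 and at 65.5, 80.1 and 77.8 on sSpi replicates 1 to 3, so RasV12 replicate 1 held the highest value; its log2 difference was 0.71 ± 0.23 (limma adjusted p = 0.18) and 0.40 without that array.

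Among markers of tissues and cells, the eye disc genes lz, B-H1 and ato were called higher and ro and ey lower in RasV12, and the antennal genes al and Lim1 were called lower. Of the 8 antennal genes tested, 3 differences were above 0, and 2 of these, dan and ss, had an unadjusted p under 0.05 in limma. Over all genes tested 2.62% were called. Of the other lists, Gli of the glial list was called lower. The groups did not overlap for 4 of the 9 glial genes tested, or 44.4%, against 20.9% of all genes. RasV12 was below sSpi for Gli, moody and wun2 and above it for nrv2, while the groups overlapped for repo. From the muscle list sls was called higher, and of its 6 genes tested 3 differences were above 0 and 3 below. The hemocyte list held 1 call, lz, which the eye list shares. None of 6 fat body and salivary gland genes tested passed in limma, and 0 had an unadjusted p under 0.05. Summed glial signal ran from 1953 to 2276 in RasV12 and from 2430 to 2647 in sSpi, without overlap. Without Gli the sums ran from 1260 to 1498 and from 1265 to 1450 and overlapped. Nrx-IV was the largest part of these sums, at 551 to 648 in RasV12 and 474 to 607 in sSpi, so dimmer glial genes count little in them. With Gli 5 of 9 glial genes tested had a difference above 0, with a median of 0.0088. Summed hemocyte signal ran from 803 to 1044 and from 666 to 1014, and summed signal of 4 fat body genes from 72.4 to 88.0 and from 77.4 to 242. Their part in the chaperone values was not tested.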
